A study of Mus musculus with 12 samples.

Results

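Proteasome genes were taken as the protein-coding genes of the read-count table whose symbol starts with Psma, Psmb, Psmc, Psmd, Psme or Psmg followed by a number. The rule found 49 genes among the 47643 gene identifiers of the table. It left out 4 pseudogenes with matching symbols, none of which had a read in any library. One of the 49, Psmc3ip, matches by its letters alone: it encodes a partner of meiotic recombinases and not a part of the proteasome, and it had 0 to 4 reads per library.

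The counts come from 3' mRNA tags of the gastrocnemius, a calf muscle, of 6 female C57BL/6J mice aged 11 weeks. Each animal gave a contracted right leg and an uncontracted left leg. The 4 groups of 3 libraries were contracted legs of mice with c-myc (Myc) over-expression, uncontracted legs of the same mice, contracted legs of control mice, and uncontracted legs of those control mice. How Myc was over-expressed, in which cells, how the muscle was stimulated and how long after contraction it was taken are not given in the sources used here, and contraction cannot be told apart from body side.

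Total counts were 1371732 to 1643216 per library. All levels below are CPM, the usual scaling of read counts to library size, adjusted by TMM (edgeR's trimmed mean of M-values). On that scale 1 read was worth 0.609 to 0.783 CPM. Since 1 tag is counted per transcript end, these levels are not divided by length. The 8 muscle fibre markers, among them Acta1, Ckm and Myh4, were all tested and summed to 117000 to 157600 CPM in every library, so the defining genes of the labelled tissue were present. Myc reads went against the labels in the 4 contracted libraries numbered 2 and 3. Those labelled contracted Myc 2 and 3 held 0 and 2 Myc reads, and those labelled contracted control 2 and 3 held 10 and 59. Contracted Myc 1 held 32 and contracted control 1 held 1. Uncontracted Myc legs held 11, 9 and 9 Myc reads, and uncontracted control legs 0, 1 and 0. A 3' tag library counts added Myc only where its transcript carries the endogenous 3' end, which the sources used here do not give. Values without these 4 libraries are given beside most contracted-leg changes of single proteasome and partner genes, but not for cell type markers. In that fit each genotype has 1 contracted library, whose spread is taken from the other groups. In bulk muscle, fewer cells of a type and less RNA per cell cannot be told apart.

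The proteasome degrades proteins tagged with ubiquitin. Its 20S core is a barrel of alpha and beta rings, and the beta subunits Psmb5, Psmb6 and Psmb7 carry the catalytic sites. The 19S cap recognises the tag, removes it and unfolds the substrate with a ring of ATPases. The activators PA28 and PA200 can dock on the core in its place. In cells exposed to interferon gamma, Psmb8, Psmb9 and Psmb10 replace the catalytic beta subunits and form the immunoproteasome, which makes peptides for antigen presentation. In skeletal muscle the proteasome is known for its part in atrophy and in turnover of contractile proteins. MYC is known as an activator of growth genes, and NRF1 (gene Nfe2l1) and NRF2 (gene Nfe2l2) pair with small MAF proteins to bind antioxidant response elements (ARE), by which NRF1 raises many proteasome subunits together.

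Transcripts of nearly every subunit were detected, at very unequal levels. Of the 49 genes, 39 had enough reads to be tested, and the other 10 together held 0.56% of the proteasome reads. Levels of the tested genes averaged over the 12 libraries spanned 6.03 to 256 CPM, and 23 of them were at or above 50 CPM. Psmd4, the ubiquitin receptor of the cap, was highest, with 250, 255 and 251 CPM in contracted Myc legs, 253, 261 and 247 in uncontracted Myc legs, 263, 238 and 241 in contracted control legs and 312, 249 and 251 in uncontracted control legs. Its lowest and highest libraries were thus both from control mice, and the groups overlapped.

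**Figure D1:**
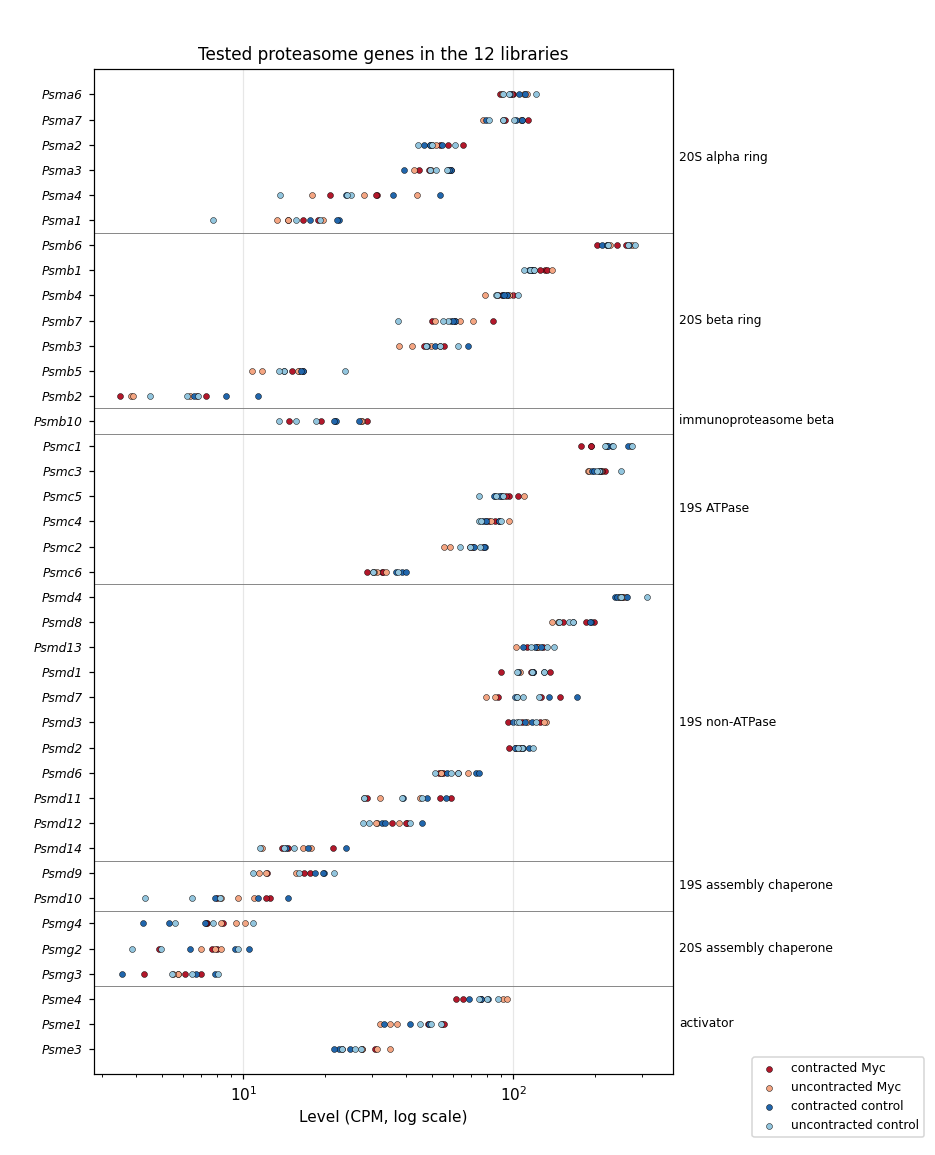
Level of each of the 39 tested proteasome genes in the 12 libraries (x axis, CPM on a log scale), with genes grouped by their place in the complex and ordered by mean level. Each point is 1 library, coloured by group. The groups lie on top of each other for most genes, while genes of 1 ring differ widely in level.

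Among the 8 alpha ring genes, Psma6 had the highest mean at 102 ± 10.01 CPM (SD, n = 12 libraries) and Psma8, known as a testis form, had 1 read in all. Psma1 was the lowest tested alpha gene at 16.9 ± 4.14 CPM. Psma5 was not tested, with 0 to 8 reads per library. In the beta ring, Psmb6 led at 242 ± 26.45 CPM, while Psmb5, which carries the chymotrypsin-like site, averaged 15.4 ± 3.26 CPM and Psmb2 6.31 ± 2.24 CPM. The subunits of a ring are present in equal numbers in the particle, but their 3' tag counts were not equal. A tag count also depends on where the annotated 3' end lies, which was not tested.

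The 6 cap ATPase genes ranged from 33.6 ± 3.75 CPM for Psmc6 to 228 ± 31.6 CPM for Psmc1. Of the 11 non-ATPase cap genes, all of which were tested, Psmd14, the deubiquitinase of the lid, was lowest at 16.1 ± 3.70 CPM. The assembly chaperones were low. Psmd9 and Psmd10, which help to build the cap base, averaged 16.1 ± 3.65 and 9.53 ± 2.91 CPM, and Psmg4, Psmg2 and Psmg3, which help to build the core, 7.66 ± 1.97, 7.35 ± 2.03 and 6.03 ± 1.31 CPM. Among activators, Psme4 (PA200) averaged 77.8 ± 10.1 CPM, Psme1 (PA28 alpha) 44.6 ± 8.59 CPM and the nuclear PA28 gamma gene Psme3 26.7 ± 4.02 CPM. Psme2, which encodes the PA28 beta partner of Psme1, had only 2 to 8 reads per library.

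Summed over all 49 genes, the proteasome level was nearly the same in every library. It was 2967, 3120 and 3021 CPM in contracted Myc legs and 2957, 2961 and 2973 CPM in uncontracted Myc legs. In control mice it was 3131, 3052 and 3103 CPM in contracted legs and 3152, 3024 and 2941 CPM in uncontracted legs. The lowest and the highest of the 12 sums were both from uncontracted control legs, and the coefficient of variation over the 12 libraries was 2.52%. It was 5.54% for the summed alpha genes, 4.70% for the beta ring, 5.45% for the ATPases and 5.10% for the other cap subunits. No test was run on sums.

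The contraction comparisons ask whether acute contraction changes proteasome gene expression. No proteasome gene passed edgeR's test (quasi-likelihood, Benjamini-Hochberg adjusted p under 0.05 over all 6676 genes tested) for contraction in Myc mice, in control mice or averaged over both. Of all genes tested, 3.89% passed in Myc mice, 2.8% in control mice and 7.47% on average. At an unadjusted p under 0.05, 5 of the 39 proteasome genes in Myc mice (background 16.0%), 3 in control mice (12.9%) and 5 on average (20.2%) stood out. DESeq2 called 0 in each. Its share over all genes is not given here or for the other comparisons below. Contracted and uncontracted libraries did not overlap for 4 of 39 genes in Myc mice (background 19.5%), 2 in control mice (16.8%) and 0 over the 6 animals (3.82%). In Myc mice these were Psme1, Psmd8 and Psma2, higher in contracted legs, and Psmc1, lower, and in control mice Psmb10 and Psmb7, both higher. The members' shares lay below those of all genes in each of these counts that has a background.

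The sizes were small as well. The median log2 change of the 39 genes was 0.05 in Myc mice and 0.03 in control mice, against -0.01 and 0.01 over all genes. The averaged contraction effect had a median of 0.09, against -0.0034 over all genes, with 27 of the 39 genes above 0. For 28 of them the 95% interval of the averaged change lay within 1.5-fold in either direction, and for 37 within 2-fold. Without the 4 contracted libraries numbered 2 and 3 the medians were 0.03 in Myc mice, 0.06 in control mice and 0.05 on average, and no proteasome gene passed.

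**Figure D2:**
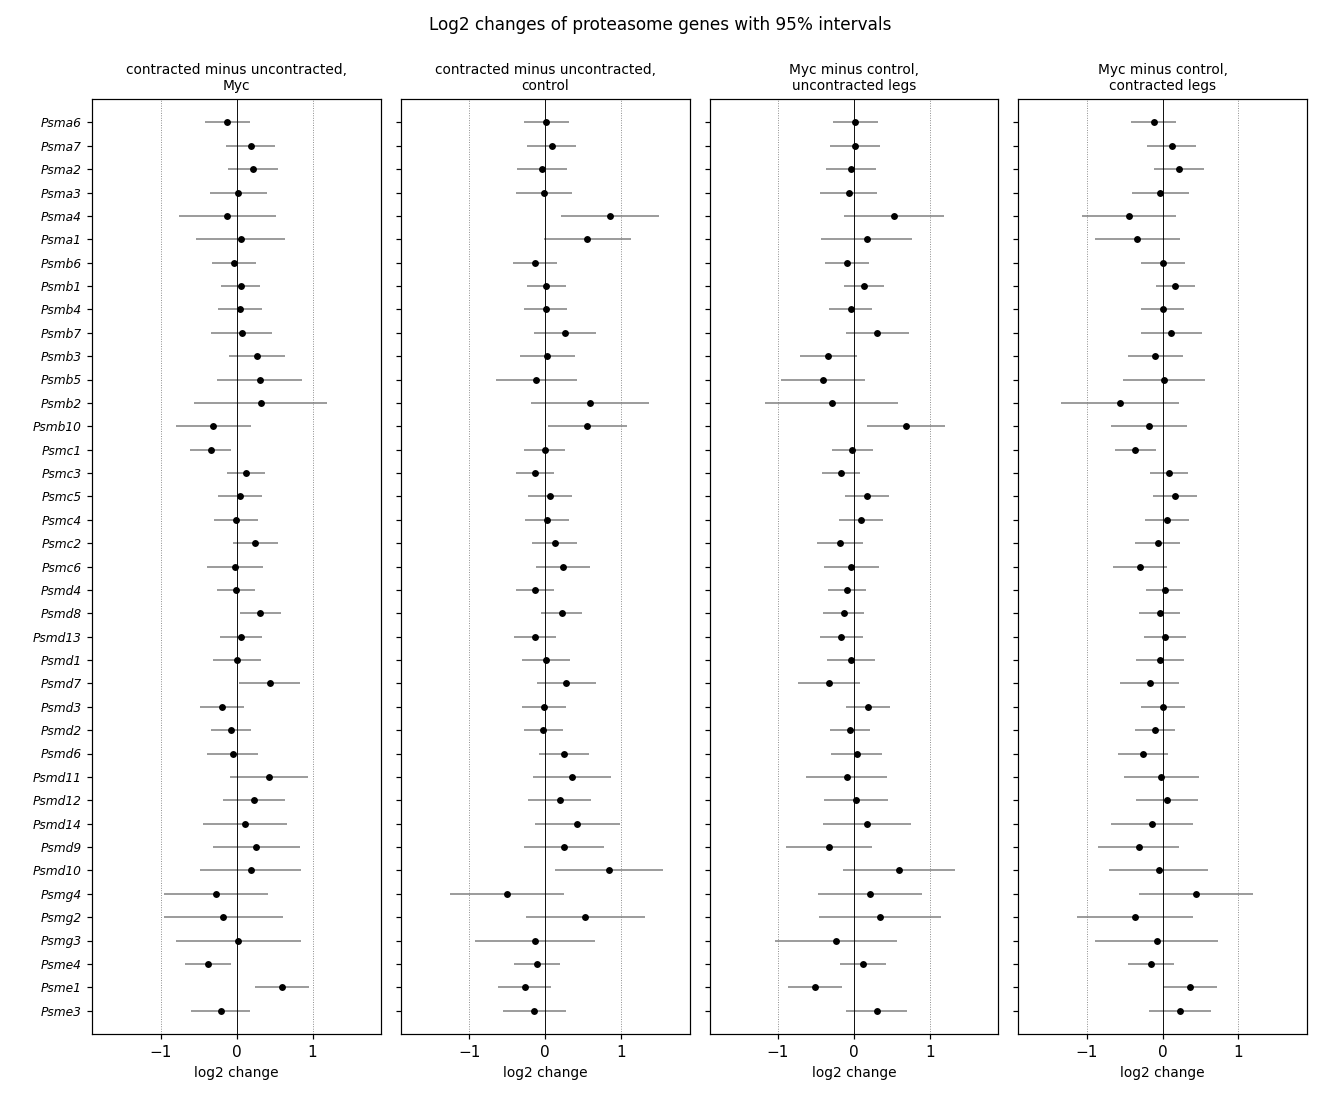
Log2 change (x axis) of each of the 39 tested proteasome genes in 4 comparisons, with edgeR's estimate as a point and its 95% interval as a line. Dotted lines mark a 2-fold change. Most intervals cross 0, and no gene passed the adjusted threshold in any panel.

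In the cap, Psmd8 (Rpn12 in yeast), a lid subunit, had the smallest p for the averaged contraction effect. Its level was 152, 185 and 199 CPM in contracted Myc legs, against 146, 148 and 139 CPM in uncontracted Myc legs. In control mice it was 195, 192 and 166 CPM in contracted legs, against 160, 166 and 148 CPM in uncontracted legs. The Myc groups did not overlap, and the control groups overlapped by contracted control 3, which lay just under uncontracted control 2. The averaged log2 change was 0.27 ± 0.09 (SE, 95% interval 0.08 to 0.46), edgeR adjusted p = 0.0868. It was 0.19 without the 4 libraries, and it passed without contracted Myc 1 (0.32, adjusted p = 0.0240).

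Psmd7 (Rpn8 in yeast), the lid partner of the deubiquitinase Psmd14, had 88.0, 149 and 127 CPM in contracted Myc legs, against 103, 85.8 and 79.1 CPM in uncontracted Myc legs. In control mice it had 101, 135 and 172 CPM in contracted legs, against 109, 104 and 125 CPM in uncontracted legs. The contracted libraries numbered 2 and 3 were the 4 highest of the 12, and those numbered 1 lay within the uncontracted range of their genotype or below the control one. The averaged change of 0.36 ± 0.13 did not pass (adjusted p = 0.125). It passed without contracted Myc 1 (0.45, adjusted p = 0.0202) or contracted control 1 (0.43, adjusted p = 0.0313), but leaving out the 4 libraries numbered 2 and 3 gave -0.09.

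Psmd11, a lid subunit whose level is known to set proteasome assembly in human stem cells, had a like order of libraries. It had 28.6, 59.0 and 53.6 CPM in contracted Myc legs, against 45.3, 28.0 and 32.1 CPM in uncontracted ones. Contracted control legs had 39.0, 47.96 and 56.4 CPM, against 38.7, 27.9 and 45.8 CPM in uncontracted ones. Its averaged change was 0.39 ± 0.18 (adjusted p = 0.218), and it passed without contracted Myc 1, but it was -0.12 without the 4 libraries numbered 2 and 3. The 11 non-ATPase cap genes had a median averaged change of 0.10, with 7 above 0. The 6 ATPase genes had a median of 0.03 and a range of -0.18 to 0.19.

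Among the ATPases, Psmc1 (Rpt2 in yeast) had the lowest contraction change in Myc mice, with 194, 193 and 178 CPM in contracted Myc legs, against 221, 222 and 273 CPM in uncontracted Myc legs, and these groups did not overlap. The log2 change was -0.34 ± 0.13 (adjusted p = 0.181), and -0.29 without the 4 libraries. Among control mice it had 267, 224 and 233 CPM in contracted legs, against 275, 234 and 219 CPM in uncontracted legs, which overlapped.

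In the core, no catalytic subunit of the constitutive type passed for contraction. Psmb6 had an averaged log2 change of -0.08 (95% interval -0.29 to 0.12), Psmb7 of 0.16 (-0.13 to 0.45) and Psmb5 of 0.09 (-0.29 to 0.48). Without the 4 libraries these changes were 0.09, 0.35 and 0.03 in that order, so the sign of Psmb6 turned. The 3' end of Psmb7 overlaps Nek6 on the other strand, which held 135 reads in all. The alpha subunit gene Psma4 had the smallest p in control mice, with 24.1, 35.97 and 53.8 CPM in contracted control legs, against 25.1, 13.6 and 24.1 CPM in uncontracted ones. Contracted control 1 lay inside the uncontracted range and contracted control 3 was the highest library of all. The log2 change was 0.85 ± 0.31 (adjusted p = 0.205). It passed without contracted control 1 (1.08, adjusted p = 0.0401) and with no low-count filter (0.85, adjusted p = 0.0169), but leaving out the 4 contracted libraries numbered 2 and 3 gave 0.19. In Myc mice Psma4 had 20.9, 31.3 and 31.1 CPM in contracted legs, against 44.0, 28.0 and 18.02 CPM in uncontracted ones, which enclosed them.

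The chaperone gene Psmd10 (gankyrin), which binds a cap ATPase during assembly, had 11.3, 14.7 and 7.87 CPM in contracted control legs, against 6.44, 8.18 and 4.33 CPM in uncontracted ones. The change was 0.84 ± 0.34 (adjusted p = 0.277), and 0.84 without the 4 libraries, and the groups overlapped. The PA200 gene Psme4 had 65.0, 76.1 and 61.5 CPM in contracted Myc legs, against 91.9, 94.7 and 76.0 CPM in uncontracted Myc legs. That is a change of -0.38 ± 0.15 (adjusted p = 0.184), and the highest contracted value lay just above the lowest uncontracted one. In control mice Psme4 had 80.8, 75.9 and 68.8 CPM in contracted legs, against 74.7, 87.9 and 79.9 CPM in uncontracted ones, and the averaged change was -0.24 ± 0.10 (adjusted p = 0.186). Without the 4 libraries the Psme4 change was -0.42 in Myc mice and -0.21 on average.

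The Myc comparisons ask whether added Myc raises proteasome genes in resting or in contracted muscle. Not 1 of the 39 genes passed edgeR's test in either leg, where 0.0% of all genes did. At an unadjusted p under 0.05, 2 genes (5.13%) stood out in uncontracted legs (background 6.31%) and 2 (5.13%) in contracted legs (3.06%), and DESeq2 called 0 in both. Groups did not overlap for 6 of 39 genes (15.4%) in uncontracted legs (background 12.8%), and for 7 (17.9%) in contracted legs (7.89%). The members' shares were above background in both contracted-leg counts and in the uncontracted overlap count, and this was not tested. Contracted-leg counts include the 4 libraries numbered 2 and 3, whose Myc reads go against their labels. In uncontracted Myc legs Psmb10, Psmd10 and Psme3 lay above control and Psme1, Psmd7 and Psmd8 below. In contracted Myc legs Psmb1, Psmg4, Psmc5 and Psmc3 lay above control and Psmc1, Psmc6 and Psmd9 below. The median log2 change was -0.03 in uncontracted legs and -0.04 in contracted legs, against -0.01 and -0.0014 over all genes. The 95% interval lay within 1.5-fold for 22 and 24 of the 39 genes. For the difference in contraction effect between genotypes, no proteasome gene passed edgeR's interaction test, which called 0.0% of all genes. At an unadjusted p under 0.05 it had 3 of the 39 (background 4.96%), and DESeq2 called 0. The 95% interval of that difference lay within 2-fold for 28 of the 39 genes, so larger differences were not bounded for the others.

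In contracted legs the smallest p was that of Psmc1, whose 3 contracted Myc values above lay under the 3 contracted control values, with a change of -0.36 ± 0.13 (adjusted p = 0.999), and -0.45 without the 4 libraries. The ATPase gene Psmc6 had 28.6, 32.5 and 32.9 CPM in contracted Myc legs, against 36.9, 38.6 and 40.0 CPM in contracted control legs, a change of -0.29 ± 0.17 (adjusted p = 0.999), and -0.35 without the 4 libraries. In uncontracted legs the beta ring gene Psmb3 had 37.6, 49.6 and 42.3 CPM in Myc mice, against 53.5, 62.7 and 47.7 CPM in control mice, a change of -0.34 ± 0.18 (adjusted p = 0.793).

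The genes that interferon gamma is known to induce did not share 1 direction, and none passed the main test. Psme1, one of the PA28 pair, lies at chr14:55578123-55581529 on the plus strand of mm10. It had 48.2, 54.6 and 55.4 CPM in contracted Myc legs, against 37.0, 35.0 and 32.1 CPM in uncontracted Myc legs. It had 48.9, 33.3 and 41.3 CPM in contracted control legs, against 54.1, 49.8 and 45.2 CPM in uncontracted control legs. Every contracted Myc library was above every uncontracted Myc library, and each control mouse had the lower value in its contracted leg. The log2 change with contraction was 0.60 ± 0.17 in Myc mice (adjusted p = 0.0543) and -0.27 ± 0.17 in control mice (adjusted p = 0.537). The difference of these changes was 0.87 ± 0.24 (95% interval 0.37 to 1.38, edgeR interaction test adjusted p = 0.854), and 0.51 without the 4 contracted libraries numbered 2 and 3.

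The Myc effect on Psme1 was -0.51 ± 0.17 in uncontracted legs (adjusted p = 0.565), where the groups did not overlap, and 0.36 ± 0.17 in contracted legs (adjusted p = 0.999). The contraction change in Myc mice sat at the threshold: it passed with a stricter low-count filter (0.61, adjusted p = 0.0376), without contracted Myc 1 (0.66, adjusted p = 0.0317) and without contracted control 1 (0.58, adjusted p = 0.0499). Without the 4 contracted libraries numbered 2 and 3 it was 0.48. The contraction change in control mice was then -0.03, and the Myc effect in contracted legs was -0.0037. The 3' end of Psme1 overlaps Emc9 on the other strand. Emc9 had 18, 20 and 13 reads in contracted Myc legs and 16, 16 and 8 in uncontracted Myc legs, and its own change was 0.27 ± 0.32 (adjusted p = 0.753).

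Psmb8, the inducible counterpart of Psmb5, was below the count filter and held 67 reads in all. It had 12, 9 and 10 reads in contracted Myc legs, against 2, 3 and 1 in uncontracted Myc legs, and 6, 4 and 1 in contracted control legs, against 8, 6 and 5 in uncontracted control legs. Contracted Myc legs were thus higher than uncontracted ones in all 3 mice and contracted control legs lower in all 3. The ratio of pooled reads was 4.85 in Myc mice (95% exact interval 1.995 to 14.2, counting error only, and 4.14 to 6.25 when leaving out any 1 library) and 0.605 in control mice (0.260 to 1.34). Without the 4 contracted libraries numbered 2 and 3 it was 6.17 in Myc mice (2.14 to 20.04, 12 against 6 reads) and 1.04 in control mice (0.339 to 2.70, 6 against 19 reads), an alternative chosen after seeing the data. The contracted reads of each genotype are then those of 1 library, so these intervals hold no spread between contracted legs. The log2 change by edgeR in that setting was 2.57 in Myc mice and 0.04 in control mice. With no low-count filter, edgeR gave a log2 change of 2.21 ± 0.60 in Myc mice (adjusted p = 0.0123). The interaction in that fit was 2.92 ± 0.84 (adjusted p = 0.236). Both p-values rest on the spread of genes of like level, not on that of Psmb8 alone. Psmb8 was 29.2% of the joint reads of Psmb8 and Psmb5 in contracted Myc legs (Wilson 95% interval 21.4 to 38.5%) and 9.52% in uncontracted Myc legs (4.44 to 19.3%). It was 13.6% in contracted control legs (7.76 to 22.7%) and 19.4% in uncontracted control legs (12.8 to 28.3%).

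Psmb10, the inducible counterpart of Psmb7, had contraction changes of the opposite sign to those of Psme1 with all 12 libraries, none of which passed. It had 28.6, 14.7 and 19.5 CPM in contracted Myc legs, against 27.4, 27.3 and 21.9 CPM in uncontracted Myc legs, which overlapped. It had 26.9, 21.98 and 21.6 CPM in contracted control legs, against 18.7, 15.7 and 13.6 CPM in uncontracted control legs, which did not. Its contraction change was -0.31 ± 0.24 in Myc mice (adjusted p = 0.580) and 0.55 ± 0.25 in control mice (adjusted p = 0.344), and the Myc effect in uncontracted legs was 0.68 ± 0.25 (adjusted p = 0.589). Without the 4 libraries its contraction change was 0.17 in Myc mice and 0.74 in control mice, so the sign in Myc mice turned. Psmb9, the third inducible subunit, had 5, 3, 2 and 1 reads summed over the 3 libraries of contracted Myc, uncontracted Myc, contracted control and uncontracted control legs, too few to compare. Psmb11, known from the thymus, had no read in any library.

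**Figure D3:**
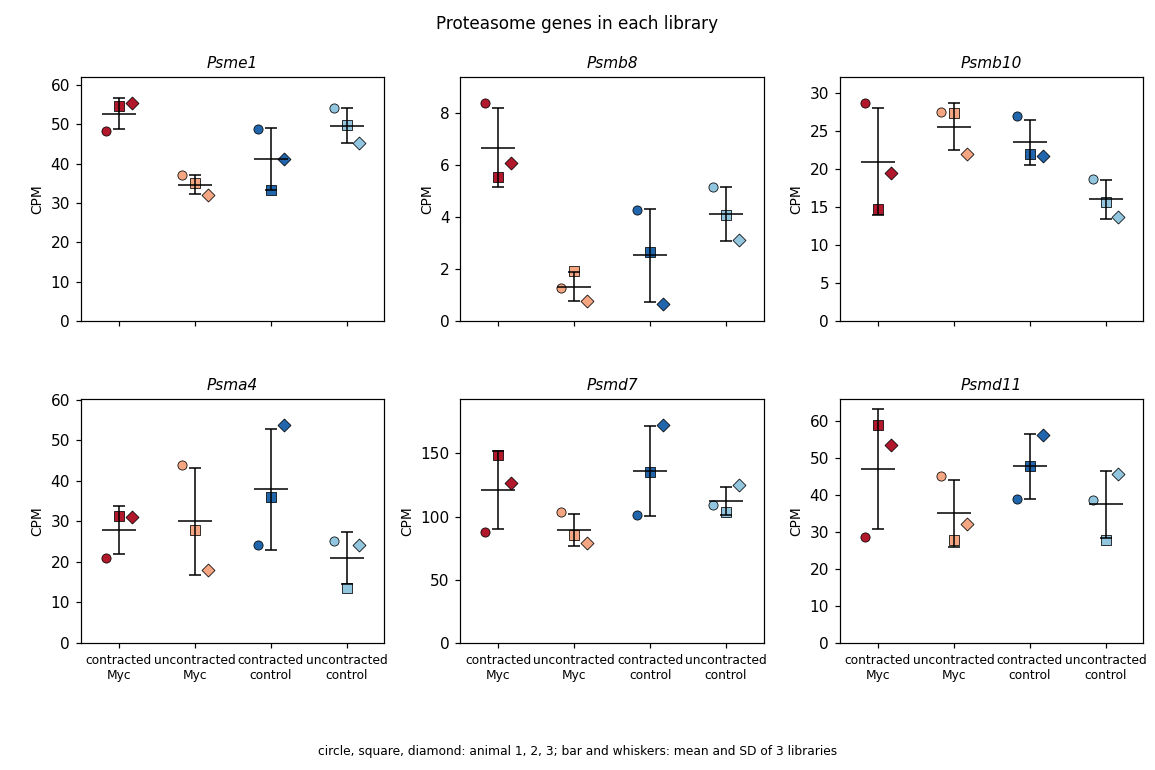
Level (y axis, CPM) of 6 proteasome genes in each library, with the mean and SD of each group of 3. Psme1 and Psmb8 were higher in contracted than in uncontracted Myc legs in all 3 mice and lower in all 3 control mice, while the contracted libraries numbered 1 were the lowest contracted ones of their genotype for Psma4, Psmd7 and Psmd11.

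Markers of leukocytes, which carry immunoproteasomes, were summed in the same libraries. The 14 markers summed to 233 to 387 CPM in contracted Myc legs and 183 to 236 CPM in uncontracted Myc legs, and to 200 to 321 CPM in contracted control legs and 254 to 449 CPM in uncontracted control legs. Of these, 9 were tested, Cd3e had no read, and the pan-leukocyte marker Ptprc was under the count filter. Their median log2 change with contraction was 0.41 in Myc mice and -0.50 in control mice. S100a8, S100a9 and Cd68 rose with contraction in Myc mice, and S100a8 and S100a9 rose and Csf1r fell in control mice. The part of such cells in the Psme1, Psmb8 and Psmb10 values was not tested. Among antigen presentation partners, B2m, Tapbp, H2-K1, H2-D1 and Irf1 passed in no comparison by edgeR.

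Partner genes, which work with the proteasome or feed it, included some that rose with contraction. Of 50 partner genes, 43 were tested, and with contraction 2 rose in Myc mice (background 3.89%), 1 in control mice (2.8%) and 5 on average (7.47%), while none fell. None passed for Myc in either leg or for the interaction by edgeR. Among the 7 genes for transcription of proteasome genes, Mafk, a small MAF partner of NRF1 and NRF2, rose in both genotypes. It had 27.9, 44.8 and 48.7 CPM in contracted Myc legs, against 14.7, 14.0 and 11.0 CPM in uncontracted ones. Contracted control legs had 40.4, 47.3 and 57.7 CPM, against 17.4, 21.1 and 11.2 CPM in uncontracted ones. All 6 contracted libraries were above all 6 uncontracted ones. The log2 change was 1.61 ± 0.26 in Myc mice (adjusted p = 0.000429) and 1.56 ± 0.25 in control mice (adjusted p = 0.000445). Without the 4 contracted libraries numbered 2 and 3 it was 1.08 in Myc mice, where it did not pass (adjusted p = 0.323), and 1.29 in control mice (adjusted p = 0.0488).

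Maff, another small MAF gene, rose in Myc mice, with 5.59, 12.9 and 19.5 CPM in contracted legs, against 1.91, 3.18 and 1.57 CPM in uncontracted ones, a change of 2.46 ± 0.49 (adjusted p = 0.0030). In control mice it had 4.96, 8.66 and 6.56 CPM in contracted legs, against 1.93, 2.04 and 2.48 CPM in uncontracted ones. The control groups did not overlap either, though Maff did not pass in control mice alone. By edgeR it also passed for contraction averaged over genotypes, with a log2 change of 1.81 to 2.21 on leaving out any 1 library. It was under the count filter without the 4 libraries. Nfe2l2 rose on average by 0.87 ± 0.26 (adjusted p = 0.0427), with 9.78, 30.7 and 21.9 CPM in contracted Myc legs, against 14.0, 7.63 and 8.62 CPM in uncontracted ones, and 13.5, 17.99 and 30.8 CPM in contracted control legs, against 14.2, 11.6 and 13.0 CPM in uncontracted ones. Its call was lost on leaving out any 1 of 9 libraries (0.67 to 0.92), the exceptions being contracted Myc 1, uncontracted Myc 1 and contracted control 1, and with library totals alone, DESeq2 or the animal as a block (0.83, adjusted p = 0.0843). It was 0.0047 without the 4 libraries. Nfe2l1 itself had 103, 108 and 111 CPM in contracted Myc legs and 115, 109 and 98.7 CPM in uncontracted ones, which overlapped.

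Of the 6 genes for ubiquitin and its activation, Ubb, a polyubiquitin gene, rose on average by 0.36 ± 0.09 (adjusted p = 0.0208), to 422 ± 45.05 CPM in the 6 contracted legs, against 329.5 ± 35.2 CPM in the 6 uncontracted legs (SD). The call was lost without contracted Myc 2 (0.33) or 3 (0.32), uncontracted Myc 1 (0.29), or uncontracted control 1 (0.31) or 2 (0.33), and the change was 0.22 without the 4 libraries. Of 8 tested genes of the VCP unfoldase, which pulls tagged proteins out of complexes, Ubxn4 rose on average by 0.81 ± 0.17 (adjusted p = 0.0044), to 56.4 ± 16.8 CPM in contracted legs, against 32.45 ± 4.25 CPM in uncontracted ones. It was 0.17 without the 4 libraries (adjusted p = 0.936). None of 11 tested proteasome-bound and assembly factors and none of 5 tested shuttle factors passed by edgeR, with median averaged changes of 0.06 and 0.03.

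**Figure D4:**
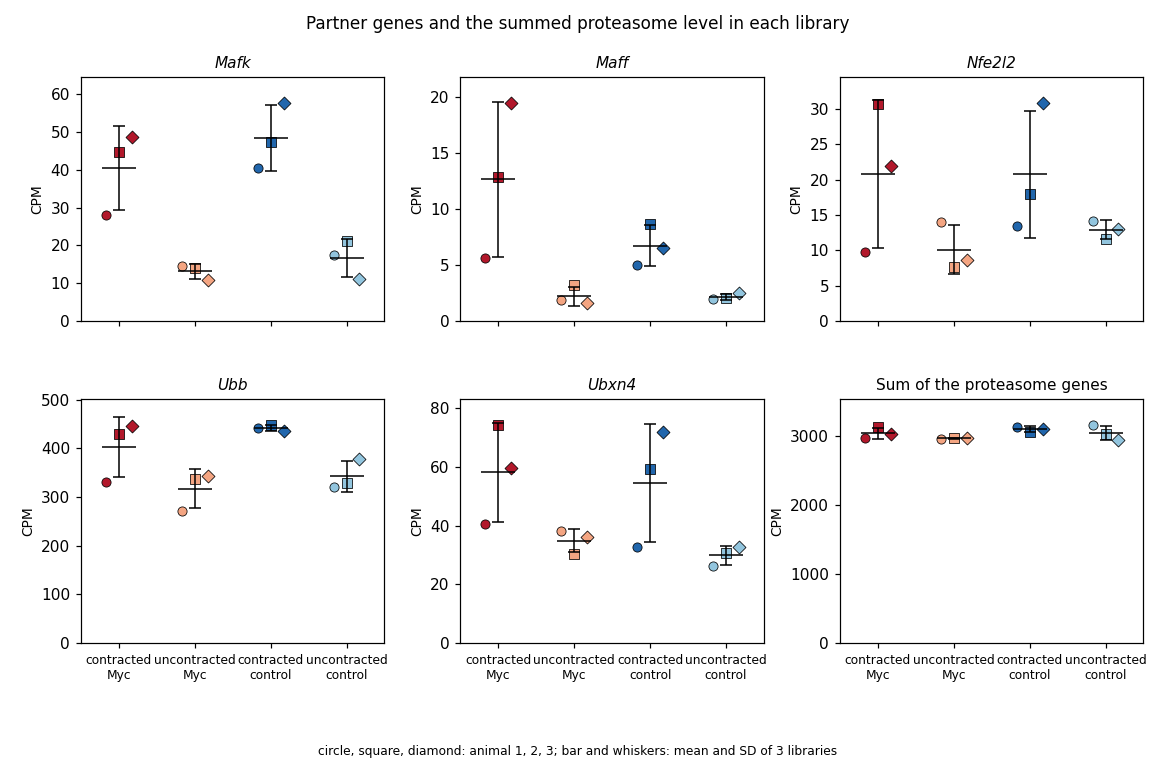
Level (y axis, CPM) of 5 partner genes that rose with contraction in at least 1 comparison, and the sum of the 49 proteasome genes, in each library with the mean and SD of each group of 3. All 6 contracted libraries were above all 6 uncontracted ones for Mafk and Maff, while the proteasome sums lay between 2941 and 3152 CPM.

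Promoter letters of the subunits were read because Mafk, Maff and Nfe2l2, whose proteins bind AREs in pairs, passed for contraction while Nfe2l1 did not, and because Myc was the tested factor. RefSeq windows of 300 bases (250 before to 50 after the start, GRCm38.p6) were matched by symbol for 41 of the 49 genes. The ARE core TGACNNNGC, on either strand, was in 6 of the 41 (14.6%), against 14.0% of 27025 genes with a window. The E-box CACGTG, which MYC binds with MAX, was in 4 (9.76%), against 8.09%. These are shares of letters, not of bound sites. The 250 bases before the start are shown for Psma4 and Psmb10, the smallest-p core genes for contraction in control mice and each with an E-box, and for the catalytic subunit gene Psmb5 with an ARE core. They lie at chr9:54950609-54950858 (plus strand), chr8:105938393-105938642 (minus strand) and chr14:54617996-54618245 (minus strand). Capitals mark the match, which begins 140, 116 and 47 bases before the start.
Psma4: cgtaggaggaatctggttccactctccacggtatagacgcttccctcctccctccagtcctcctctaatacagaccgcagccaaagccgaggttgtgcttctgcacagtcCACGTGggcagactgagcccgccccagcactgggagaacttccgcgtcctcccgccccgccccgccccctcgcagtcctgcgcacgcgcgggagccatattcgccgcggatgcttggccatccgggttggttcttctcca
Psmb10: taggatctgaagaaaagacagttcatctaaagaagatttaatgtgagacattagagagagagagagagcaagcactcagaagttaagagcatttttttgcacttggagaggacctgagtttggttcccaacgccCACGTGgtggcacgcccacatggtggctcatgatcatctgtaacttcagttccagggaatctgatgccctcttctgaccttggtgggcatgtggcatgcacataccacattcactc
Psmb5: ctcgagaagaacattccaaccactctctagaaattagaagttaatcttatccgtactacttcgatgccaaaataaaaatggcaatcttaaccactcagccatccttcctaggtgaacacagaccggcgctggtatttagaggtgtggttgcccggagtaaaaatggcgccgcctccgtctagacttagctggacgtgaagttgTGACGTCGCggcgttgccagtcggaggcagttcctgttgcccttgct
The genes with an E-box were Psma4, Psmb10, Psmd9 and Psme3, and their Myc effects in uncontracted legs were 0.53, 0.68, -0.33 and 0.30. In contracted legs, in the same order, they were -0.45, -0.18, -0.32 and 0.23, and none passed in either. Without the 4 contracted libraries numbered 2 and 3 the contracted-leg effects were -0.18, 0.11, -0.12 and 0.33, so that of Psmb10 turned. The 6 genes with an ARE core were Psmb5, Psmb6, Psmc6, Psmd12, Psmd9 and Psme4. Their contraction changes in Myc mice were 0.31, -0.04, -0.02, 0.23, 0.26 and -0.38 in that order, and in control mice -0.12, -0.13, 0.24, 0.19, 0.24 and -0.10. None passed, and their signs were mixed in both genotypes. Without the 4 libraries the changes were 0.33, 0.13, -0.14, 0.12, 0.38 and -0.42 in Myc mice. In control mice they were -0.28, 0.06, 0.17, -0.0096, 0.17 and -0.0063. The signs of Psmb6 in both genotypes and of Psmd12 in control mice thus turned.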

How the data were processed

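Per the labels, RNA of 12 gastrocnemius legs was sequenced as QuantSeq 3' tags. The authors deposited whole-number read counts per Ensembl gene. Per the submitters' processing notes, reads were handled with HTSeq 0.6.0, STAR 2.5.2a, FastQC 0.11.5 and SAMtools, and the build was mm10. The annotation release and strand setting are not given in the sources used here, so reads of genes overlapping on opposite strands may not be told apart.

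Counts were fitted in R 4.3.3 with edgeR 4.0.16 (quasi-likelihood test after TMM scaling, genes kept by filterByExpr at its minimum of 10 counts) in 1 model of 4 groups with all 12 libraries. Benjamini-Hochberg adjustment covered the 6676 genes kept, and an adjusted p under 0.05 passed. With limma 3.58.1 loaded by edgeR and DESeq2 1.42.0 as an alternative test, other choices were another scaling, no filter, a stricter filter (20 reads in 3 libraries), leaving out each library, leaving out the 4 contracted libraries numbered 2 and 3, and an animal block. TMM factors were 0.917 to 1.07. The fitting was also run on simulated counts with set changes in the contracted control libraries. The share of these changes recovered is not given here, so that run says nothing on the size of change that could be missed.

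The numbers in the titles pair the legs of 1 animal. Deviations of paired legs from their group means correlated at -0.122 to 0.112. Except in the fit with the animal block, edgeR's p-values treat the legs of 1 animal as separate libraries. They rest on the spread between libraries within the 4 groups, shared in part with that of other genes. They do not measure the spread of paired changes between the 3 animals of a genotype. Pooled read intervals cover counting error only.

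The proteasome genes and all gene lists were chosen with earlier results of these data known. Genes named with statistics were the 3 with the smallest p per comparison, the highest and lowest of each subcomplex, the inducible beta subunits with their counterparts, the activators, and the partner genes that passed. Psmd11 and Nfe2l1 were named after their values were seen. One listed partner gene is not reported here.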

Additional observations from a re-analysis of the deposited data

Results flagged for a closer look

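Psme1 and Psmb8 moved in opposite directions with contraction in the 2 genotypes in every animal. For Psme1 the contraction change in Myc mice minus that in control mice was 0.87 on the log2 scale, and edgeR's interaction test did not pass (adjusted p = 0.854). Of the 6 animals, 4 rest on the contracted libraries numbered 2 and 3, whose Myc reads go against their labels. Without these libraries the Psme1 difference was 0.51. The Psme1 contraction change was then 0.48 in Myc mice and -0.03 in control mice, so little of the fall in control mice remained. With all 12 libraries, 1 of the 39 tested proteasome genes moved in opposite directions in the 2 genotypes in every animal, against 2.52% of all genes tested. For Psmb8, which was under the count filter, the same difference in the fit with no filter was 2.92 (edgeR adjusted p = 0.236), from 67 reads. Without those 4 libraries the Psmb8 ratio of reads was 6.17 in Myc mice and 1.04 in control mice, so the lower value in control mice was not seen. Each of these ratios rests on 1 contracted library. The summed leukocyte markers, given with the immunoproteasome genes, overlapped between contracted and uncontracted legs in both genotypes. The 9 tested markers had a median log2 change with contraction of 0.41 in Myc mice and -0.50 in control mice. These signs were those of the Psme1 changes with all 12 libraries. S100a8 and S100a9 rose with contraction in both genotypes, Cd68 rose in Myc mice and Csf1r fell in control mice. The part of such cells in either difference was not tested.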

How the results depend on the processing

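Across 483 alternative values for 26 named gene results, 452 kept their direction and side of the threshold, 8 passed newly, 21 no longer passed and 2 turned. Those that turned were the averaged contraction change of Psmd7 (-0.0854) and the Myc effect on Psme1 in contracted legs (-0.0037), both without the 4 contracted libraries numbered 2 and 3, and the cause was not tested. Results outside these 26 also turned without those libraries. Among them were the averaged change of Psmd11 (-0.12) and the contraction change of Psmb10 in Myc mice (0.17). One proteasome gene passed for contraction in control mice with no low-count filter (Psma4), 1 in Myc mice with no filter (Psmb8) and 1 in Myc mice with the stricter filter (Psme1). Leaving out 1 library gave 0 to 1 genes passing in control mice, 0 to 2 in Myc mice, 0 to 3 on average and 0 to 0 in the Myc and interaction comparisons. The shares of all genes passing in these alternative settings are not given here, so these counts of proteasome genes have no background beside them.

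Median log2 changes of the proteasome genes moved by more than the SD between replicates (0.02) as follows. With library totals alone they were 0.061 (contraction in control mice), 0.0771 (in Myc mice), 0.128 (averaged), 0.0015 (Myc, uncontracted legs) and -0.0098 (Myc, contracted legs). With the stricter filter they were -0.0586 (Myc, uncontracted legs) and 0.0476 (interaction), with DESeq2 -0.0072 (Myc, contracted legs) and 0.0395 (interaction), and with no filter -0.0059 (Myc, contracted legs). Without the 4 libraries they were 0.0628 (control mice), 0.0456 (averaged), -0.0133 (Myc, contracted legs) and -0.0423 (interaction). Leaving out 1 library gave 0.0129 to 0.0708 in control mice, 0.0187 to 0.0709 in Myc mice, 0.0388 to 0.102 averaged, -0.0554 to -0.0177 for Myc in uncontracted legs, -0.0524 to -0.0128 for Myc in contracted legs and -0.0571 to 0.0224 for the interaction. With the animal as a replicate block no proteasome gene passed, the interaction median was -0.0082, and of the named partner genes Nfe2l2 lost its call. At 1371732 to 1643216 reads a library, Psmb9 and Psme2 had under 10 reads in every library, and the 67 reads of Psmb8 leave wide intervals. Without the 4 libraries, an alternative chosen after seeing the data, the Psmb8 ratio of reads was 6.17 in Myc mice and 1.04 in control mice, each from 1 contracted library.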

Other observations

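Proteasome genes of similar level differed in how much they varied. Psma4 (29.2 CPM) had a coefficient of variation of 38.4% over the 12 libraries and Psmc6 (33.6 CPM) one of 11.2%, against a median of 13.2% over the 39 tested proteasome genes.

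Red cell transcripts were higher after contraction. All 4 haemoglobin genes listed rose on average by edgeR's test, and their sum was 425 to 1003 CPM in contracted Myc legs against 352.5 to 412.5 CPM in uncontracted ones, and 402 to 658 CPM in contracted control legs against 310 to 462 CPM in uncontracted ones. Fibroblast markers summed to 645 to 1356 CPM in contracted Myc legs against 622 to 766 CPM in uncontracted ones, and to 761 to 1073 CPM in contracted control legs against 914 to 1556 CPM in uncontracted ones, and none of the 5 tested passed for contraction by edgeR. None of 5 tested endothelial markers passed either.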
